A study of Mus musculus with 20 samples.

Results

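A set of 8 gene rows stood out for high counts in mouse colorectal tumors, most of them lying next to, or inside, another gene: Tcfl5, Mir1905, Spatc1, Arv1, Marcksl1, Ush1g, Extl1 and Rcan3. They are 8 of the 46329 gene rows in the count files. They were chosen on the tumor change itself, from the 10 rows with the largest fitted rise among those called by edgeR that averaged 5 CPM or more and whose tumor libraries all lay above the adjacent ones. By that rule 7 came from control mice and Ush1g from Erbb2-deficient mice, so those changes, their calls and their lack of overlap are a description with no test. Rows with larger rises whose groups overlapped, such as Otop2 in controls, are outside it. At the edge of the choice in control mice, Marcksl1 was just inside with a log2 fold change of 3.75 and Igfbp5 just outside with 3.72.

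The libraries came from C57BL/6J mice at 100 days of age, all carrying the ApcMin/+ allele, which truncates one copy of the Wnt pathway inhibitor Apc and leads to intestinal tumors. Erbb2-deficient mice were ApcMin/+, Erbb2f/f, Tg(Vil1-cre), in which the villin promoter drives Cre in intestinal epithelium, and the littermate controls were ApcMin/+, Erbb2f/f without the Cre transgene. Colorectal tumor and adjacent non-tumor epithelium were taken from each genotype, with 5 libraries in each of the 4 groups and 20 in all. The labels call the libraries biological replicates and do not tie a tumor to its adjacent tissue.

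In a strand-aware library a read is assigned to a gene only if it comes from the strand the counter looks for. When that setting is reversed, the row of a gene collects reads transcribed from the strand opposite to it, and a gene with a neighbour on the other strand can lend its reads to the neighbour's row. The kit here was a stranded one, and how the counter was set for strand was not stated. ND6, the mitochondrial protein gene encoded on the strand opposite to the others, had 22599 to 199495 counts per library, while all other mitochondrial protein rows together had 884 to 5698. Tsix, the antisense partner of Xist, reached 2038 counts, while Xist reached 51. Only 2.51% to 3.45% of reads fell on genes and 78.6% to 85.1% on no feature. The row of Erbb2, the targeted gene, had 1 to 11 counts in Erbb2-deficient tumors and 1 to 10 in control tumors, and 5 to 22 and 3 to 12 in adjacent tissue; if the strand is reversed, this row does not check the genotype. The rows therefore look counted on the opposite strand, and a level is called below the level of a row, not of a gene.

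Where such a row overlaps an exon of the opposite gene, reads of that gene over the shared bases would enter the row. The counts do not show where along a row its reads lie, so the share that comes from the opposite gene is not known. Of the 8 rows, 3 overlap an opposite exon in the GENCODE M21 annotation (GRCm38), namely Tcfl5 with Col9a3, Mir1905 with Mex3a and Spatc1 with Mirt2. The shared exon bases are 234 of 3166 for Tcfl5, 191 of 1700 for Spatc1 and all 82 for Mir1905. The RefSeq spans of Ush1g and Arv1 also overlap those of Otop2 and Fam89a, by 17115 and 2538 bases. RefSeq exons were not compared, and the annotation used for the counts was not stated, so Ush1g and Arv1 may also lie over an opposite exon. The files were aligned to mm39, so no position is carried over from one build to the other. The sequences below, from RefSeq GRCm38.p6 unless stated, show the clearest of these overlaps. The microRNA is on the minus strand at chr3:88536311-88536332 within a hairpin at chr3:88536301-88536382, and its seed, bases 2 to 8, is in capitals. In the hairpin and in the Mex3a transcript, capitals mark the mature sequence and the bases opposite to it. The Mex3a stretch is from the GENCODE transcript, positions 683 to 764 of 5778, in exon 2 of 2 and wholly in coding sequence.
mmu-miR-1905 mature: cACCAGUCccaccacgcgguag
Mir1905 hairpin: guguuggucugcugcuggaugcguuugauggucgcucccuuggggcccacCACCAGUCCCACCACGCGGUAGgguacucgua
Mex3a transcript opposite the hairpin: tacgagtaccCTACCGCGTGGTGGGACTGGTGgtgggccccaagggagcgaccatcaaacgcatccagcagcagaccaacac
The 82 bases of the hairpin are the complement of 82 bases of Mex3a messenger RNA, and the match occurs at 1 place in that transcript.

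**Figure D1:**
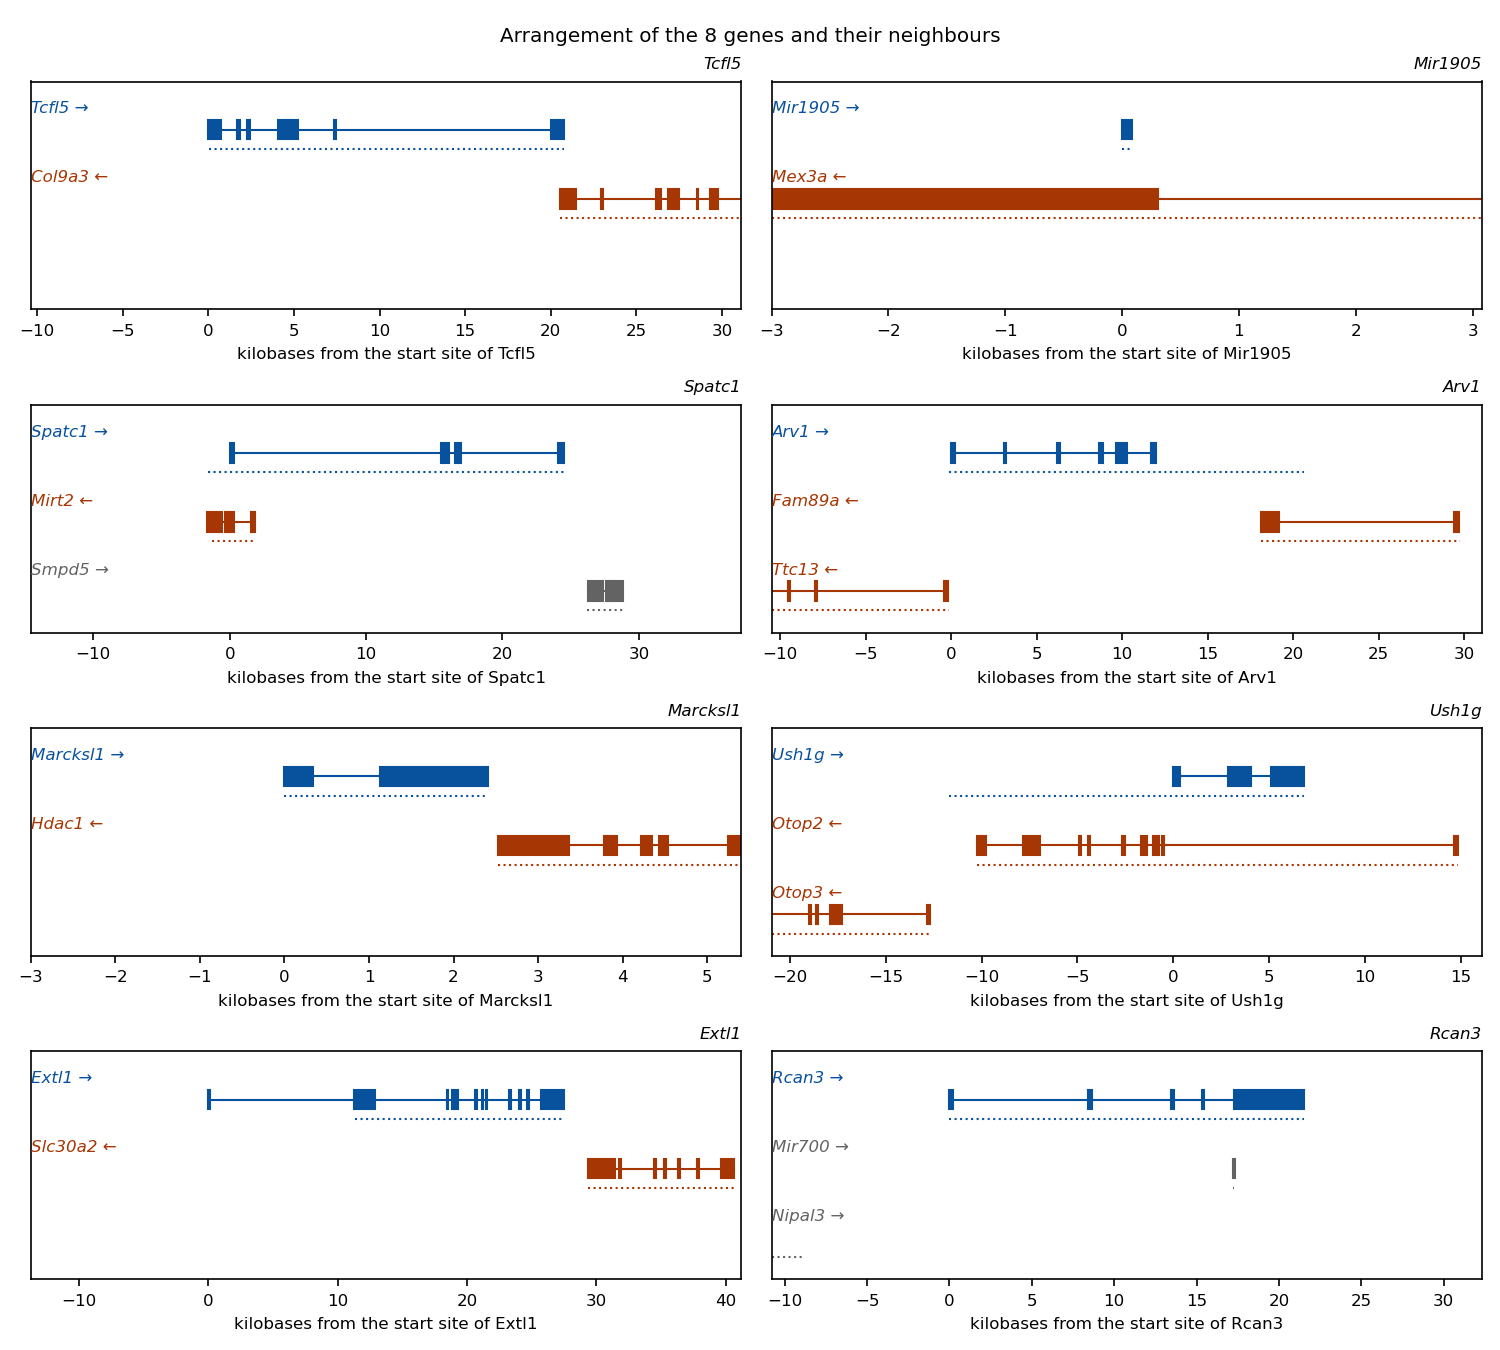
Each panel places a chosen gene (blue) and its neighbours on the opposite strand (brown) or the same strand (grey), in kilobases from the start site of the chosen gene and in its direction; boxes are GENCODE M21 exons, solid lines gene spans and dotted lines RefSeq spans. In GENCODE the Mir1905 hairpin lies inside an exon of Mex3a, Ush1g inside an intron of Otop2, and Tcfl5, Marcksl1 and Extl1 end where an opposite gene ends. The longer RefSeq span of Ush1g reaches over exons of Otop2.

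All 8 rows were higher in tumors than in adjacent tissue in both genotypes, Ush1g in controls with overlap between the groups, and none was called between genotypes. For the 8 rows, adjusted p-values are given only where a row was not chosen and where its level in adjacent tissue alone would have passed the filter on low counts. Of the 8 rows, 6 passed that filter only through tumors, where they are high, so they had to differ and their calls support nothing: Tcfl5, Mir1905, Spatc1, Marcksl1, Ush1g and Rcan3. Arv1 and Extl1 reached the minimum in all 10 adjacent libraries, and both rose in Erbb2-deficient mice, where they had not been chosen (edgeR quasi-likelihood test, Benjamini-Hochberg adjusted p = 1.11e-06 and 1.36e-05). Of the 7119 rows tested, 13% rose in that comparison and 27.5% changed in either direction. In control mice 10.7% of rows rose and 21.6% changed. Fewer cells of a type and less RNA per cell cannot be told apart in these bulk samples.

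**Figure D2:**
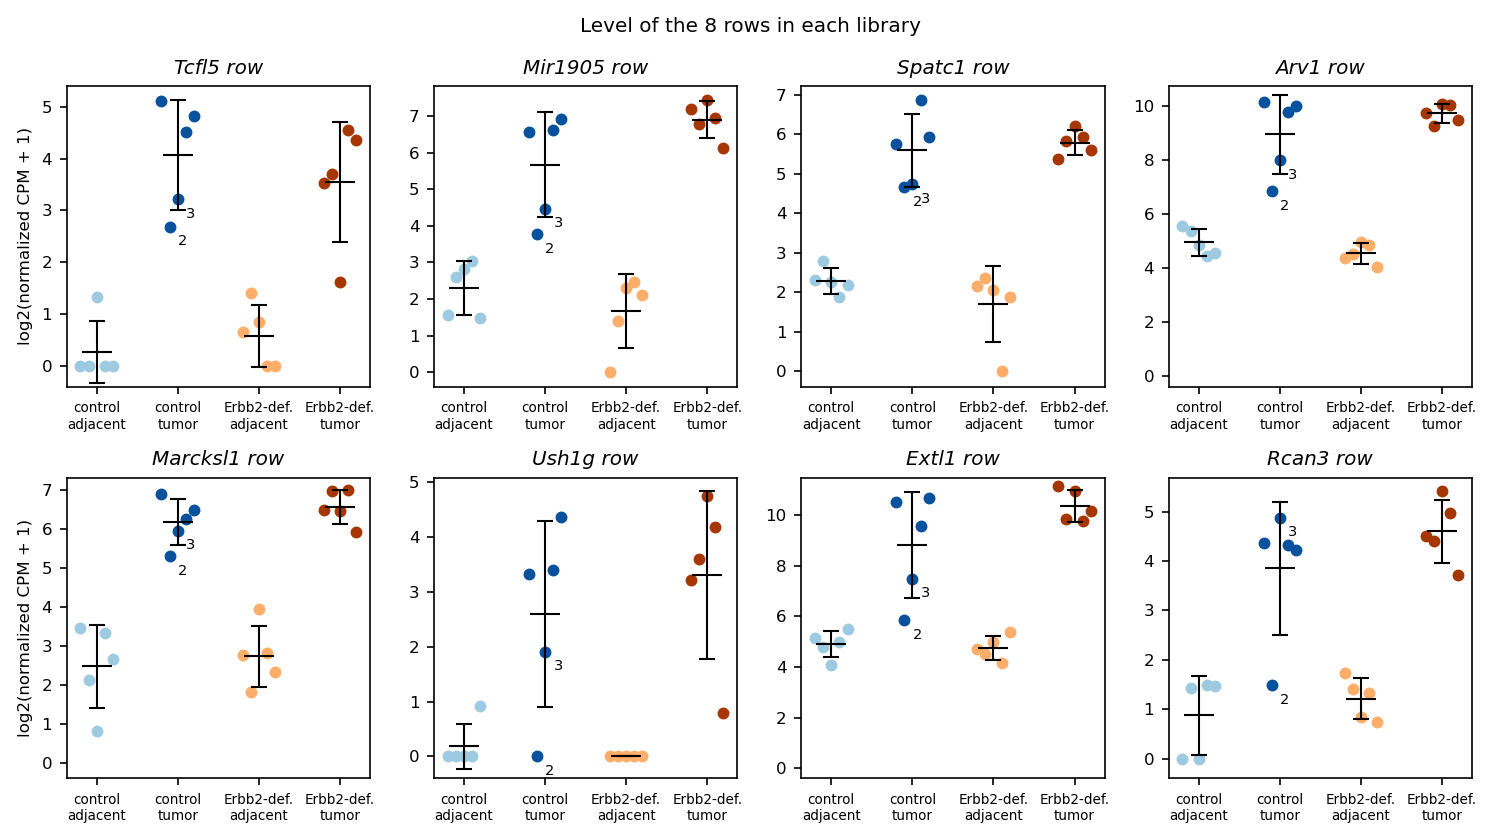
Points are libraries, placed by group, with the mean and SD in black; the vertical axis is log2(normalized CPM + 1), and control tumors 2 and 3 are numbered. Tumor libraries sit above the adjacent ones for every row except Ush1g in control mice, and control tumor 2 lies close to adjacent tissue for Rcan3.

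The 3 rows over an opposite exon in GENCODE are taken first. Tcfl5, a basic helix-loop-helix transcription factor best known from spermatogenesis, ends inside the 3' end of Col9a3, which encodes a chain of type IX collagen, with 234 exon bases shared. The Tcfl5 row had 48, 6, 9, 23 and 32 counts in control tumors and 14, 16, 3, 30 and 27 in Erbb2-deficient tumors. Adjacent tissue had 0, 0, 2, 0 and 0 in controls and 1, 2, 1, 0 and 0 in Erbb2-deficient mice. All tumor libraries were above all adjacent ones in both genotypes. Such a lack of overlap was part of the rule in controls, where 3.96% of all tested rows show it and nothing is read from it, and in Erbb2-deficient mice 11.9% show it. In control mice the ratio of summed normalized counts was 58.0, with a 95% counting interval of 15.7 to 484, and it rests on 2 counts in control adjacent library 3. In Erbb2-deficient mice the row was higher in tumors by 4.31 ± 0.80 (log2, SE, n = 5 a group). The Col9a3 row stayed at 9 counts or fewer and was not tested across genes. In controls it had 9, 0, 4, 4 and 2 counts in tumors and 1, 0, 1, 1 and 0 in adjacent tissue, which overlap (ratio 6.22, 95% counting interval 1.83 to 32.8, exact permutation p = 0.0635, adjusted p = 0.275 over 26 tests). It had 6, 3, 1, 9 and 3 counts in Erbb2-deficient tumors and 0 in all adjacent libraries of that genotype, at least 7.54-fold higher when 3 counts summed over the group serve as the floor (exact permutation test, 2-sided, p = 0.00794, the smallest that 5 against 5 allows, adjusted p = 0.0688 over 26 tests).

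Mir1905 is annotated as a microRNA, a class of short RNA that pairs with messenger RNAs through its seed. Mex3a encodes an RNA-binding protein known from intestinal progenitor cells. The Mir1905 row had 134, 14, 23, 103 and 142 counts in control tumors and 194, 147, 249, 165 and 95 in Erbb2-deficient tumors. It had 2, 6, 8, 8 and 2 counts in control adjacent tissue and 0, 2, 5, 6 and 5 in Erbb2-deficient adjacent tissue. Every tumor library was above every adjacent one, and control tumors 2 and 3 were the lowest tumors. The log2 fold change was 3.92 ± 0.63 (SE) in controls and 5.51 ± 0.67 in Erbb2-deficient mice.

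The Mex3a row, counted by the same rule over its whole transcript, was not called. It had 21, 1, 10, 12 and 10 counts in control tumors against 9, 9, 15, 6 and 12 in control adjacent tissue. Its log2 fold change was 0.03 ± 0.41 in controls (95% interval -0.82 to 0.88, edgeR adjusted p = 0.966) and 0.33 ± 0.38 in Erbb2-deficient mice (-0.47 to 1.13, adjusted p = 0.553). The Mir1905 row had a mean of 69.2 normalized CPM in control tumors and 124 in Erbb2-deficient tumors, and the Mex3a row 8.93 and 14.6. Per kilobase of exon, the Mir1905 row was at 843 CPM in control tumors and 1516 in Erbb2-deficient tumors, and the Mex3a row at 1.55 and 2.53. Division by 82 bases overstates so short a row if reads that only touch it are counted, so the size of that gap is not read. The printed hairpin is a stretch of Mex3a coding sequence on the other strand, so with opposite-strand counting reads of Mex3a messenger RNA over those bases would enter the Mir1905 row, and the Mex3a row would hold reads of the opposite strand. A poly(A)-selected library does not measure a 22-base mature microRNA as such.

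Spatc1 encodes speriolin, a centrosomal protein of sperm, and starts opposite Mirt2, a long non-coding RNA, with 191 exon bases shared. The Spatc1 row had 76, 27, 28, 123 and 71 counts in control tumors and 54, 75, 104, 81 and 66 in Erbb2-deficient tumors. Adjacent tissue had 4, 7, 5, 3 and 4 counts in controls and 6, 5, 4, 0 and 4 in Erbb2-deficient mice, so no tumor overlapped adjacent tissue. The log2 fold change was 3.78 ± 0.49 in controls and 4.31 ± 0.50 in Erbb2-deficient mice. The Mirt2 row held 1 count in all 20 libraries. The nearest downstream gene, the sphingomyelinase Smpd5, lies on the same strand 1775 bases away, and its row changed by -0.54 ± 0.36 in controls and -0.24 ± 0.36 in Erbb2-deficient mice, neither past the threshold (edgeR adjusted p = 0.302 and 0.658).

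Marcksl1 and Extl1 each end close to the end of an opposite gene without overlap. Marcksl1, an actin-binding substrate of protein kinase C, ends 118 bases from the end of Hdac1, a class I histone deacetylase. The Marcksl1 row had 167, 42, 66, 79 and 104 counts in control tumors and 116, 165, 123, 171 and 82 in Erbb2-deficient tumors. In adjacent tissue it had 10, 4, 1, 10 and 6 counts in controls and 10, 3, 18, 8 and 6 in Erbb2-deficient mice. The groups did not overlap in either genotype, and the log2 fold change was 3.75 ± 0.49 in controls and 3.88 ± 0.48 in Erbb2-deficient mice.

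The Hdac1 row was far lower, with 22, 6, 11, 9 and 15 counts in control tumors and 12, 1, 5, 3 and 5 in control adjacent tissue. It was higher in tumors by 1.17 ± 0.48 in controls and 1.34 ± 0.44 in Erbb2-deficient mice (log2, SE). This row too passed the filter only through tumors, so its tests support nothing, and its call changed with single libraries. In Erbb2-deficient mice the edgeR adjusted p was 0.0295, and 0.0509 to 0.0776 without tumor 2 or 4 or adjacent library 2 or 5. In controls it was 0.0858, and 0.0433 without control tumor 2 and 0.0116 without control adjacent library 1.

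Extl1, a glycosyltransferase of the exostosin family that works on heparan sulfate chains, ends 1887 bases from the end of the zinc transporter Slc30a2. The Extl1 row had 2095, 63, 194, 795 and 1936 counts in control tumors and 2970, 1223, 2833, 1154 and 1568 in Erbb2-deficient tumors. In adjacent tissue it had 35, 32, 21, 34 and 50 counts in controls and 43, 26, 39, 22 and 61 in Erbb2-deficient mice. Control tumors 2 and 3 were lowest, and all tumors stayed above all adjacent libraries. The mean was 819 ± 722 normalized CPM (SD, n = 5) in control tumors and 1425 ± 642 in Erbb2-deficient tumors. The log2 fold change was 4.75 ± 0.67 in controls and 5.72 ± 0.70 in Erbb2-deficient mice (edgeR adjusted p = 1.36e-05 for the latter). With control tumors 2 and 3 left out the control value was 5.40.

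The Slc30a2 row had 72, 26, 19, 44 and 69 counts in control tumors and 26, 22, 11, 15 and 20 in control adjacent tissue. In Erbb2-deficient mice it had 79, 36, 72, 41 and 71 counts in tumors and 20, 16, 19, 21 and 21 in adjacent tissue, with no overlap. It rose by 1.20 ± 0.34 in controls and 1.64 ± 0.34 in Erbb2-deficient mice (edgeR adjusted p = 0.0165 and 0.00150). The control call was lost without control tumor 5 (adjusted p = 0.0549) and in a fit of the control libraries alone (log2 fold change 1.19, adjusted p = 0.0782).

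Ush1g encodes the scaffold protein Sans of the Usher type 1 complex of inner ear hair cells, and lies inside a long intron of Otop2, a proton channel, with no shared exon in GENCODE. The RefSeq span of Ush1g is longer and overlaps that of Otop2 by 17115 bases. The Ush1g row had 13, 0, 3, 10 and 23 counts in control tumors and 11, 15, 37, 23 and 1 in Erbb2-deficient tumors. Adjacent tissue had a single count in controls and none in Erbb2-deficient mice. In Erbb2-deficient mice, where Ush1g was chosen, tumors were at least 29.8-fold higher by the same floor. In controls, where the row was not chosen, control tumor 2 had no count and the groups overlapped. The control ratio was 48.1, with a 95% counting interval of 8.25 to 1940, and the fitted log2 fold change 4.94 ± 1.27 (SE). Leaving out control adjacent library 5, the one with the count, gave 6.42, and leaving out control tumor 5 gave 4.34.

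The Otop2 row moved with it. It had 34, 0, 1, 29 and 29 counts in control tumors and 18, 13, 49, 23 and 2 in Erbb2-deficient tumors, with 1 count in all 10 adjacent libraries. The same tumors were low in both rows, namely control tumors 2 and 3 and Erbb2-deficient tumor 5. Like Ush1g, the row passed the filter only through tumors, so its test supports nothing. Control tumors were at least 30.5-fold higher against the floor, and in Erbb2-deficient mice the ratio was 107.9, with a 95% counting interval of 18.9 to 4302.

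Arv1 encodes an endoplasmic reticulum protein of lipid homeostasis. Its start faces that of Ttc13, 155 bases away in GENCODE and 14 in RefSeq, and its RefSeq span, though not its GENCODE one, overlaps the opposite gene Fam89a by 2538 bases. The Arv1 row had 1635, 126, 273, 922 and 1191 counts in control tumors and 1131, 823, 1535, 1418 and 986 in Erbb2-deficient tumors. Adjacent tissue had 47, 48, 36, 23 and 25 counts in controls and 34, 26, 38, 37 and 23 in Erbb2-deficient mice. All tumors were above all adjacent libraries. The log2 fold change was 4.43 ± 0.49 in controls and 5.23 ± 0.51 in Erbb2-deficient mice (edgeR adjusted p = 1.11e-06 for the latter). The rows of its neighbours were not called. Ttc13 stayed at 5 counts or fewer, and Fam89a changed by 0.12 ± 0.38 in controls and -0.62 ± 0.38 in Erbb2-deficient mice (edgeR adjusted p = 0.857 and 0.233).

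Rcan3, a regulator of the phosphatase calcineurin, has no opposite gene next to it among the neighbours searched. Mir700 and the nearest genes, Ncmap and Nipal3, are on its own strand. The Rcan3 row had 28, 2, 31, 20 and 21 counts in control tumors and 29, 27, 60, 41 and 17 in Erbb2-deficient tumors. Adjacent tissue had 0, 2, 0, 2 and 2 counts in controls and 4, 2, 1, 2 and 1 in Erbb2-deficient mice. Control tumor 2 was barely above adjacent tissue in CPM, and the other tumors were well above it. The log2 fold change was 3.93 ± 0.67 in controls and 4.07 ± 0.61 in Erbb2-deficient mice. The transcript that the reads of this row come from was not identified.

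**Figure D3:**
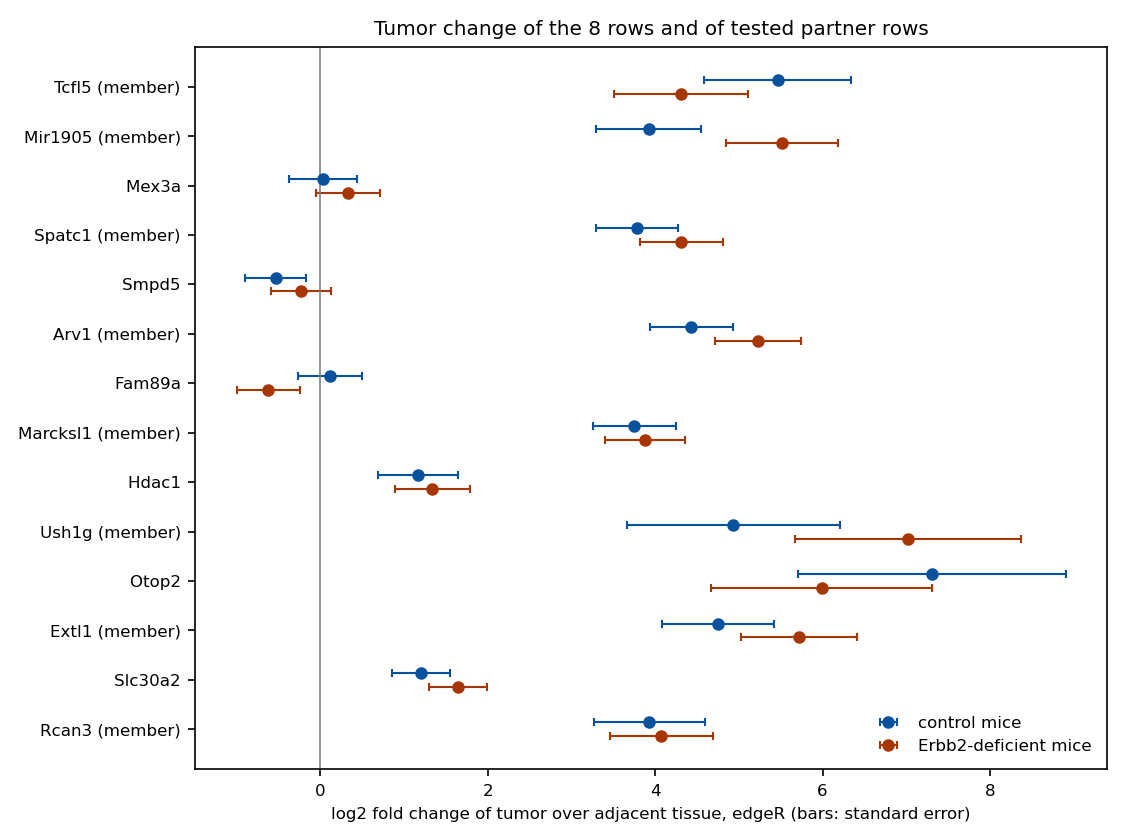
Points are edgeR log2 fold changes of tumor over adjacent tissue with their standard errors, in control (blue) and Erbb2-deficient (brown) mice, for the 8 rows and the neighbouring rows that could be tested. The 8 rows lie between 3.75 and 7.02, Otop2 lies at 5.99 and at 7.31, the latter above all of them, Hdac1 and Slc30a2 between 1.17 and 1.64, and Mex3a, Smpd5 and Fam89a near 0.

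Whether a row and its neighbour vary together was examined over the 20 libraries after the mean of each group was subtracted, for 9 pairs, with a permutation test within groups and adjustment over the 9. Ush1g and Otop2 varied together, with Pearson r = 0.91 (adjusted permutation p = 0.00648) and Spearman rho = 0.68 (adjusted permutation p = 0.0438). Without the 2 libraries farthest from the median r was 0.83. Each of these rows had 1 count in all adjacent libraries together and passed the filter only through tumors, so their relation rests on the tumor libraries. Extl1 and Slc30a2 gave r = 0.75 (adjusted permutation p = 0.0136) and rho = 0.77 (0.0106), with r = 0.77 without the 2 farthest. Marcksl1 and Hdac1 gave r = 0.66 (adjusted permutation p = 0.0287) and rho = 0.74 (0.0106), with r = 0.77 without 2. These 3 pairs passed, and the relation held without the farthest libraries. The test does not compare neighbours with rows that lie apart. Over the 28 pairs among the chosen rows the median r was 0.46, and 0.29 without control tumors 2 and 3. Arv1 with Extl1 reached 0.80. The rows most like Extl1 and Marcksl1 were Ism1 (0.92) and Sarm1 (0.80), while the row most like Ush1g was its neighbour Otop2 (0.91). Whether the relation is particular to neighbours was not tested.

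The other 6 pairs did not pass. Tcfl5 and Col9a3 had r = 0.65 (adjusted permutation p = 0.0601, rho = 0.40), falling to 0.29 without the 2 farthest libraries, so it rests on them. Spatc1 and Smpd5 had r = 0.63 (adjusted permutation p = 0.0601). Mir1905 and Mex3a had r = 0.48 (0.246), and 0.19 without control tumors 2 and 3. Arv1 with Fam89a and Ttc13, and Rcan3 with Nipal3, had r from -0.30 to -0.06.

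**Figure D4:**
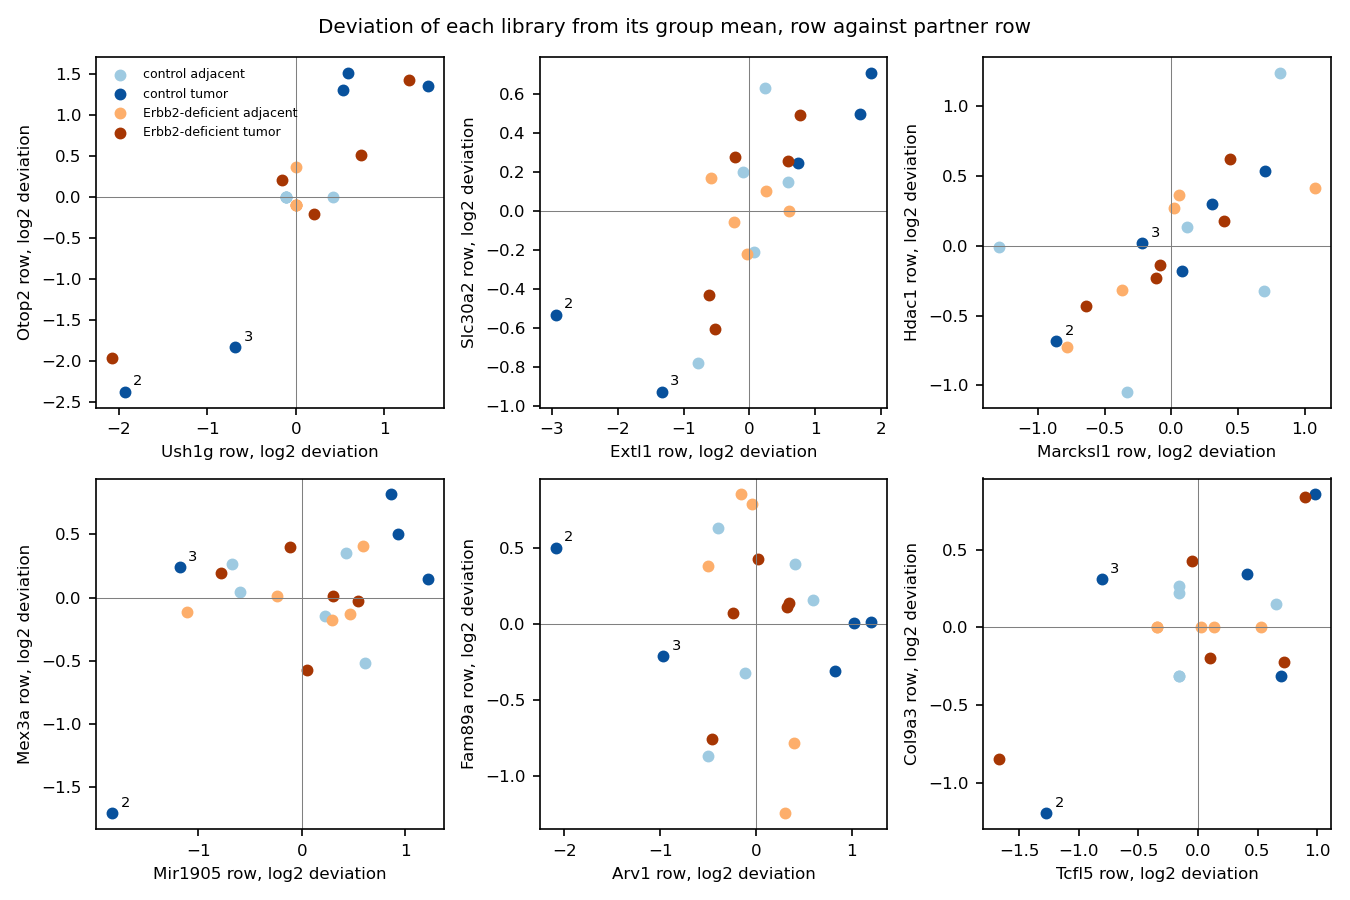
Each point is a library, placed by its log2 deviation from its group mean in a row (horizontal) and in the neighbouring row (vertical), coloured by group, with control tumors 2 and 3 numbered. Points rise along a line for Ush1g with Otop2 (r = 0.91), Extl1 with Slc30a2 (0.75) and Marcksl1 with Hdac1 (0.66), and not for Arv1 with Fam89a (-0.15).

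The rows also shared which tumors were low. Control tumor 2 was the lowest of the 10 tumors in 7 rows and had rank 2 from the bottom for Tcfl5, and control tumor 3 had rank 2 or 3 from the bottom except for Rcan3, where it had rank 8. Control tumor 2 had epithelial marker rows summing to 15.4 CPM with 5 of 7 at 0, against 195 to 811 in the other control tumors, and B and lymphoid marker rows summing to 385 CPM against 53.3 to 114. The smooth muscle marker rows, 8 of 8, were lower in tumors of both genotypes, where 21.6% (controls) and 27.5% (Erbb2-deficient) of all rows changed in either direction. Myh11, Des, Cnn1, Actg2 and Lmod1 reached the filter minimum in 0 tumor libraries and Acta2 in 1. These rows passed only through adjacent tissue, where they are high, so the 8 of 8 supports nothing. In controls the sum of the 8 rows was 1008 to 2450 CPM in adjacent tissue and 158 to 509 in tumors. In Erbb2-deficient mice it was 1002 to 1317 and 159 to 244. Smtn and Tagln weigh most in that sum, at means of 884 and 464 CPM in control adjacent tissue, and Tagln was at 233 in control tumors. Among the tested marker rows, Smtn, Tagln, Des, Cxcr5, Krt8 and Vil1 overlap an opposite exon, so they may hold reads of the opposite gene. Of the absorptive colonocyte markers 3 were tested. Car4 was lower in tumors by -3.88 in controls and -4.75 in Erbb2-deficient mice (log2) and Slc26a3 by -3.25 and -4.24, while Otop2, on the same list, was higher. Car4 and Slc26a3 passed the filter only through adjacent tissue and Otop2 only through tumors, so these changes support nothing. The part of these cell types in the rises of the 8 rows was not tested. Arv1 and Extl1 remained called in Erbb2-deficient mice without control tumors 2 and 3. Those libraries are in neither group of that comparison and enter it only through the shared fit, so this says little about them.

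Over the 28 pairs among the 8 rows, the correlation of group-centred log2 CPM ran from 0.08 to 0.80 with a median of 0.46, and from -0.27 to 0.69 with a median of 0.29 without control tumors 2 and 3. By the same measure over the 20 libraries, the rows most like each were Lyz1 for Tcfl5 (0.78), Txnrd2 for Mir1905 (0.93), Spef1 for Spatc1 (0.80), Dkk2 for Arv1 (0.90), Sarm1 for Marcksl1 (0.80), Otop2 for Ush1g (0.91), Ism1 for Extl1 (0.92) and Tusc2 for Rcan3 (0.85). These are descriptions over libraries that share depth and the 2 low tumors. Txnrd2 kept 0.91 without those tumors, and Tusc2 fell to 0.59.

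Between genotypes no row of the 8 was called, in tumors or in adjacent tissue, and neither was any other row by edgeR (0% of the 7119 rows in each; 817 rows had an unadjusted p under 0.05 in tumors and 418 in adjacent tissue). DESeq2 called 26 rows in tumors and 5 in adjacent tissue, none of them among the 8. In tumors the log2 difference, Erbb2-deficient over control, was 0.34 for Arv1 (95% interval -0.53 to 1.22), 0.80 for Extl1 (-0.38 to 1.97), 0.84 for Mir1905 (-0.23 to 1.92) and -0.55 for Tcfl5 (-1.69 to 0.60). The interaction of genotype with tissue was not called for any row by edgeR (0%; 290 rows at an unadjusted p under 0.05) or by DESeq2 (0 rows). For the 8 rows it ran from -1.15 to 2.09 on the log2 scale, and the interval for Ush1g, -2.58 to 6.75, was the widest of those printed. The Tsix row had 99 to 2038 counts in control libraries 1, 2 and 3 of both tissues. In Erbb2-deficient mice it had 1487 and 1546 in libraries 5, and all other libraries had 2 or fewer. This split is uneven between genotypes. Neither it nor the sex of the mice was in the fit, and their part in the genotype comparisons was not tested.

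Rows of related genes, from lists chosen with earlier results known, give the setting. Counts of calls stand beside 21.6% of all rows called in controls and 27.5% in Erbb2-deficient mice. Of 11 calcineurin and NFAT rows 3 were tested, and besides Rcan3 none was called, with Nfatc3 at -0.01 and -0.06 (log2). Of 11 rows for heparan sulfate synthesis 3 were tested, 2 of them passing the filter only through tumors. Besides Extl1, the sulfotransferase Ndst1 stood at 0.29 ± 0.40 in controls, where it was not called, and at 1.27 ± 0.42 in Erbb2-deficient mice. It is one of those 2 rows, so its call in Erbb2-deficient mice supports nothing. Hs6st1 is the other and was not called, at 1.04 and 0.82. Marcks, the other member of the Marcksl1 family, changed by 0.55 in each genotype without passing (edgeR adjusted p = 0.197 and 0.179). Of the 3 tested Usher type 1 rows, Ush1c and Cdh23 were not called. Of 11 class I deacetylase complex rows 7 were tested and 2 were called in each genotype, a share near that of all rows. In controls Chd4 was higher (0.80) and Rbbp4 lower (-1.05). In Erbb2-deficient mice Hdac1 and Hdac2 were higher, and both passed the filter only through tumors, so their calls support nothing.

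Of 20 Wnt target rows, 12 were tested, and 8 were called higher in controls and 9 in Erbb2-deficient mice, against 10.7% and 13% of all rows. Of the 12, 10 passed the filter only through tumors, so this count supports nothing. Of the other 2, the transcription factor Tcf7 rose in Erbb2-deficient mice by 0.93 ± 0.27 (edgeR adjusted p = 0.0128) and stood at 0.59 ± 0.26 in controls (adjusted p = 0.115), and the cyclin Ccnd1 was not called, at -0.26 and -0.04. The row of Lef1, a transcription factor of the pathway with an exon opposite another gene, was at 2.54 normalized CPM in control adjacent tissue and 26.2 in control tumors. Nkd1, a feedback inhibitor, was at 2.94 and 35.4. Lef1 and Nkd1 passed the filter only through tumors, so these levels support nothing. Sox9 and Ephb2 passed the same way and were not called. Sox9 stood at 1.12 in controls and 1.05 in Erbb2-deficient mice (log2), and Ephb2 at 0.31 and 0.62.

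Because Wnt signals reach genes through TCF/LEF factors, the RefSeq promoter windows (250 bases before to 50 after the start, GRCm38.p6) were searched for the core letters CTTTGA on both strands. Of 32851 windows, 16% hold it. Windows existed for 5 of the 8 genes and for 20 of 35 genes sought, neighbours included. Extl1 and Rcan3 hold it among the 8, and Slc30a2, Otop2 and Nipal3 among the neighbours. Printed are the windows that hold the match for the pairs that varied together, and that of Rcan3, the row that has no opposite gene. Of those pairs, Marcksl1 has a window without the match and Hdac1 has none listed. Otop2 has 2 windows, and the other one does not hold the match. Capitals mark the match, which reads TCAAAG where it lies on the other strand. The windows are Extl1 chr4:134372498-134372797 (minus strand), Slc30a2 chr4:134343216-134343515 (plus), Otop2 chr11:115306913-115307212 (plus) and Rcan3 chr4:135433756-135434055 (minus).
Extl1 promoter: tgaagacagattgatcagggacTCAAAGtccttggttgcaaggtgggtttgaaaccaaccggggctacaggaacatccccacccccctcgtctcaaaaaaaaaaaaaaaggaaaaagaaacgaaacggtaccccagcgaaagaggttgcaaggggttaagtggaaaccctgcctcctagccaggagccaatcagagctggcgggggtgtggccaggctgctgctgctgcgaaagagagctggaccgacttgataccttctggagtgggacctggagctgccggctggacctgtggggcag
Slc30a2 promoter: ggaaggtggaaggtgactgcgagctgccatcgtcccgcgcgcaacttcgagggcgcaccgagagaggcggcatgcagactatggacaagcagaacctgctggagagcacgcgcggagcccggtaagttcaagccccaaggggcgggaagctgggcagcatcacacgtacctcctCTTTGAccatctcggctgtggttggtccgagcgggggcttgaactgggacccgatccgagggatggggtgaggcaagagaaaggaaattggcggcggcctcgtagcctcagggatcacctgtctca
Otop2 promoter: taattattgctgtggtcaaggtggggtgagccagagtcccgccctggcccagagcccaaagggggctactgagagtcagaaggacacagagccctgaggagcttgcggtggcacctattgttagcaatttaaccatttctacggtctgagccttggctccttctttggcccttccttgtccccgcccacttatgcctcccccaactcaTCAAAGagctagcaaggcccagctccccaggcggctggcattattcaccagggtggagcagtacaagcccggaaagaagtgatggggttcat
Rcan3 promoter: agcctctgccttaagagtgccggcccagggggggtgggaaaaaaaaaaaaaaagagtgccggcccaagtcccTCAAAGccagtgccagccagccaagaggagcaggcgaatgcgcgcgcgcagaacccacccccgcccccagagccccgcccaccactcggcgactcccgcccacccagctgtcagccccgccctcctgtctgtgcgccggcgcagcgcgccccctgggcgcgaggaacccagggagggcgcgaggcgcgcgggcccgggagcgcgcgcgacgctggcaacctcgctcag
Each printed window holds 1 match. A match is a description of the letters and not a binding site. Each window belongs to the gene named. If the rows are counted on the opposite strand, it may not be the promoter of the transcript whose reads the row holds. No window was listed for Mir1905, Spatc1 or Ush1g, and those of Tcfl5, Arv1 and Marcksl1 do not hold the letters.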

How the data were processed

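RNA sequencing libraries were made with a stranded messenger RNA kit, per the labels' protocols. The authors deposited raw counts per gene symbol for each of 20 libraries, in 46329 gene rows and 5 summary rows. Trimmomatic, HISAT2 2.2.1, HTSeq 2.0.2, DESeq2 and the mm39 build are named in the submitters' processing notes; for the strand setting and gene annotation: not given in the sources used here. Gene counts per library were 1071737 to 1944309 (median 1258396), which limits precision for rows of a few counts.

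Summary rows (78.6% to 85.1% no feature) were left out of library sizes. Counts were fitted with edgeR 4.0.16 (R 4.3.3): filterByExpr by group with a minimum count of 10, TMM scaling, a means model of the 4 groups over all 20 libraries, the robust quasi-likelihood F test, and Benjamini-Hochberg adjustment over 7119 rows at 0.05. The SE is the log2 fold change over the square root of F. DESeq2 1.42.0 was an alternative. The fit was tested on simulated data. Pair correlations used 100000 permutations within groups. Counting intervals cover counting error only.

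The genes named are the 8 rows, genes overlapping them or nearest on each side, the rows most alike, and the family and marker lists. Members and lists were chosen with earlier results of these data known. The ranking that places rows just inside and outside the choice leaves out predicted genes and antigen receptor segments and needs a call, no overlap and a mean of 5 CPM, and the libraries that mean covers are not stated; a mean over all 20 libraries was tried first and placed Dkk2 at rank 10 in Erbb2-deficient mice, and a mean over the 2 groups compared, adopted afterwards because it gave the earlier list, placed Cfi at rank 10. The control ranks 8 to 12 and the rank of Ush1g were the same in both, and no test uses the ranking.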

Additional observations from a re-analysis of the deposited data

Results flagged for a closer look

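Of 64 groups of 5 libraries examined, 4 had a library far from the other 4 by Dixon's test at the 95% level, and chance flags about 1 in 20 groups. The Tcfl5 row in control adjacent library 3 was at 1.53 CPM, which is 2 counts, with the other libraries at 0. The Ush1g row in control adjacent library 5 was at 0.890 CPM and the Otop2 row in Erbb2-deficient adjacent library 4 at 0.757 CPM, each 1 count with the others at 0. The Mex3a row in Erbb2-deficient adjacent library 4 was at 15.9 CPM, with the next at 11.6.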

How the results depend on the processing

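Arv1 and Extl1 stayed past the threshold in Erbb2-deficient mice under every alternative. The calls of the other rows follow from how they were chosen or filtered, and are given only as counts. Fitting only the 2 groups compared tested fewer rows: 5 of the 8 were called in controls, since Tcfl5, Ush1g and Rcan3 did not pass its filter, and 6 in Erbb2-deficient mice, without Tcfl5 and Ush1g. That fit called 593 rows in controls against 1540. Leaving out control tumors 2 and 3 gave 2544 called rows in controls and 2939 in Erbb2-deficient mice, against 1959. Called rows ranged from 1188 to 2127 in controls and from 1573 to 2719 in Erbb2-deficient mice when a library was left out in turn, with 8 of the 8 called each time. Without control adjacent library 3, which holds the Tcfl5 counts of its group, the control log2 fold change of Tcfl5 was 7.63 against 5.46, and without Erbb2-deficient adjacent library 2 the Erbb2-deficient value was 4.93 against 4.31. For Otop2 the Erbb2-deficient value was 7.28 without adjacent library 4, against 5.99.

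Between genotypes, DESeq2 called 26 rows in tumors and 5 in adjacent tissue where edgeR called 0. In adjacent tissue 1 row was called with no filter and 1 without control tumors 2 and 3, and 0 to 2 when a library was left out in turn, with 2 without control tumor 2. The cause of these differences was not tested.

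With the replicate number as a block, 1428 rows were called in controls and 1989 in Erbb2-deficient mice, 8 of the 8 in each, and 0 between genotypes or for the interaction. The block changed 1 call among the named rows, Hdac1 in controls (adjusted p = 0.0387), and gave 4.09 for Extl1 in controls. The labels do not say whether a number marks the same mouse, and correlation cannot decide it. Tumor and adjacent libraries of the same number correlated from -0.12 to 0.37, 4 of 10 best with their own number. For control number 1 the Tsix row had 156 counts in tumor and 99 in adjacent tissue. It had 517 and 1363 for control number 2, and 1310 and 2038 for 3. For Erbb2-deficient number 5 it had 1546 and 1487, and every other library had 2 or fewer. The main fit does not pair libraries. Depth limits Ush1g, Tcfl5, Rcan3, Col9a3 and Mirt2, whose adjacent counts are near 0.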
